A study of Mus musculus with 18 samples.

Results

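Adipocyte marker genes were followed in mouse skin, papillomas and cutaneous squamous cell carcinomas. The 10 genes, Adipoq, Cfd, Lep, Retn, Plin1, Plin4, Cidec, Lipe, Fabp4 and Pparg, were chosen by symbol as known markers of fat cells, and all 10 were found among the 14521 named genes of the expression table. They were chosen with earlier results of these data known, so the shares of all genes set beside their counts below are a description. The samples came from 6 female littermates of SKH-1E, a hairless strain prone to skin tumours under ultraviolet light, which had been chronically irradiated with solar simulators from young adulthood and were killed after a pause in irradiation. Each mouse, numbered 2, 3, 7, 8, 9 or 10, gave irradiated skin without a lesion (CHR), a benign epidermal outgrowth or papilloma (PAP) and a squamous cell carcinoma of the skin (SCC), so that n = 6 in each group. No unirradiated skin is among these groups, and CHR, the reference, had received the same irradiation as the tumours. Tissue was taken in bulk, and a lower level of a fat cell gene can come from fewer fat cells or from less RNA per fat cell, which cannot be told apart here.

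White adipocytes lie below the dermis, where they store triglyceride in a single large lipid droplet and secrete hormones. Pparg encodes the nuclear receptor that drives their differentiation, together with C/EBP factors, and turns on many of the other genes. Proteins of the perilipin and CIDE families coat and enlarge the droplet, lipases release fatty acids from it, and Fabp4 carries these fatty acids within the cell. Several of these genes also have known expression elsewhere, Pparg in sebaceous glands and macrophages, and Fabp4 in endothelial cells and macrophages.

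Recovered depth was 15.4 M to 20.96 M reads per library. Levels are given as normalised reads, that is, reads recovered from the deposited values and divided by the size factor of the library. Tests were made with limma on log2(value + 1) of the deposited values with the mouse as a block and Benjamini-Hochberg adjustment over 14521 genes, and a gene was called at an adjusted p under 0.05. That deposited scale compresses low levels, so fold changes are given from limma-voom on the recovered reads, with their 95% confidence intervals (CI), whereas adjusted p are those of the test on deposited values unless stated. In the papilloma group several members had libraries without a single read, and the size of these folds then depends on the 0.5 reads that voom adds. Keratinocyte markers were present in all 18 libraries, with a summed level of 231061 to 1262061 normalised reads.

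The starts of Adipoq, Lep and Pparg are shown as examples of windows that hold a match. The windows of Cfd, Retn, Plin1, Cidec and Lipe hold none, although these genes were also called lower in the comparisons below. The Lep window holds a different motif from the Adipoq and Pparg windows shown, which hold the same one. The sequences are the 250 bases before the RefSeq start on GRCm38.p6, and capitals mark matches on either strand to the C/EBP palindrome TTGCGCAA, the box CCAAT, the nuclear receptor half-site AGGTCA or the box TATAAA. They are Adipoq at chr16:23146286-23146535, Lep at chr6:29059971-29060220 and the third listed start of Pparg at chr6:115421816-115422065, all on the plus strand.
Adipoq: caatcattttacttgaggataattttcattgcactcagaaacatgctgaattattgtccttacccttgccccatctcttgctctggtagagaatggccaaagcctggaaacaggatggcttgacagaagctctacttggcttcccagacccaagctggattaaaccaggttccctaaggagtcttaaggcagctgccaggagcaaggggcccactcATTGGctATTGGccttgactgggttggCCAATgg
Lep: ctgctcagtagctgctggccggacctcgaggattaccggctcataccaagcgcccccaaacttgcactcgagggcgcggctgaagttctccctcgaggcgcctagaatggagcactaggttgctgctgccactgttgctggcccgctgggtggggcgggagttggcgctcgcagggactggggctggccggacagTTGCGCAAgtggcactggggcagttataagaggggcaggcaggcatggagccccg
Pparg: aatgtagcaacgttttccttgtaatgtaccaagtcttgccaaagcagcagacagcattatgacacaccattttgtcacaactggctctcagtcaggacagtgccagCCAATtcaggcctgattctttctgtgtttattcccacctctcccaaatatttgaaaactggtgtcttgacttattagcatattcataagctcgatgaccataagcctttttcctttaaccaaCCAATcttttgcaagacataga

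Of the members, 9 had 13 starts in the RefSeq table, and Fabp4 had no entry. The Lep window held the C/EBP palindrome, which was found in 0.164% of all 32851 windows of this length and in 1 of the 13 member windows. CCAAT, present in 33.8% of all windows, was found in 4 of the 13 member windows. AGGTCA was found in 2 of 13 against 14.0% of all windows, and TATAAA in 1 of 13 against 12.4%. These matches are a description of letters, and binding was not measured.

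The comparison of papilloma with irradiated skin asks which fat cell genes had changed in the benign lesion. Of the 10 members, 9 were lower and 0 were higher in PAP, where 29.3% of all genes were called lower, 23.3% higher and 52.6% in either direction. For 8 members the 6 papillomas lay below the 6 CHR samples without overlap, which was true of 19.2% of all genes. The exceptions were Lipe, which fell with 1 tied value, and Fabp4, which was not called. With limma-voom the same 9 were called lower, as were 29.2% of all genes (53.2% in either direction). The median log2 fold change of the members was -7.26 in that fit, beside 0.01 for all genes.

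In carcinoma, 9 members were again lower than in CHR and 0 were higher, where 22.7% of all genes were called lower, 15.8% higher and 38.4% in either direction. All 9 lay below CHR without overlap, against 11.2% of all genes, and were lower in 6 of 6 mice. With limma-voom the same 9 were called lower, as were 21.5% of all genes (37.9% in either direction), and the median log2 fold change of the members was -4.63, beside -0.02 for all genes. Both comparisons share the CHR samples, so the second is not independent of the first.

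**Figure D1:**
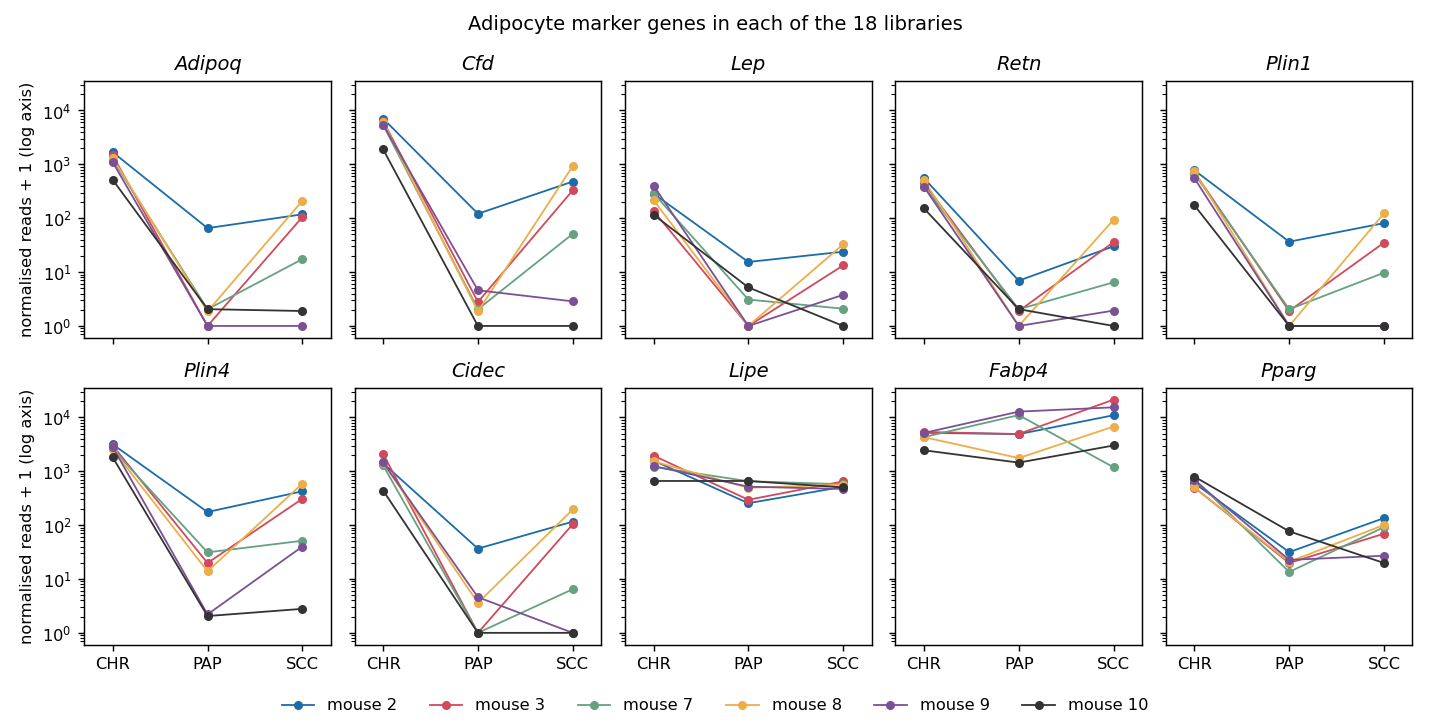
Normalised reads + 1 (log axis) of each marker gene in the 18 libraries, with a line per mouse joining its CHR, PAP and SCC samples. All genes but Lipe and Fabp4 dropped to under 175 normalised reads in every papilloma, while Fabp4 stayed above 1000 in all 18 libraries.

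Among the secreted factors, Adipoq (adiponectin, a hormone that raises insulin sensitivity, chromosome 16, 23146536 to 23158028) had 516 to 1682 normalised reads in CHR, with a median of 1268. In PAP it had 0 to 64.4, with a median of 0.953, and in SCC 0 to 209, with a median of 60.3. Only the papilloma of mouse 2 held more than 3 reads of Adipoq, whereas 4 of 6 carcinomas did. The fall was 314-fold in PAP (log2 fold change -8.29, 95% CI -10.65 to -5.93, adjusted p = 7.5e-07) and 26.0-fold in SCC (-4.70, 95% CI -6.06 to -3.34, adjusted p = 1.94e-05).

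Cfd (adipsin, the complement factor D protease, chromosome 10, 79890853 to 79892655) had the highest level per kilobase of all members in CHR, at 1898 to 7074 normalised reads with a median of 5764. It had 0 to 120 in PAP, with a median of 1.42, and 0 to 927 in SCC, with a median of 189.8. The decrease was 807-fold in PAP (adjusted p = 1.29e-06) and 33.9-fold in SCC (adjusted p = 4.18e-05). Mouse 10 had 0 reads of Cfd in both tumours although its CHR sample held 1977 reads.

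Lep (leptin, the satiety hormone, chromosome 6, 29060220 to 29073877) was the lowest member per kilobase in CHR, at 115 to 401 normalised reads. Its level was 0 to 14.4 in PAP and 0 to 31.8 in SCC, and its fall was 103-fold and 30.2-fold (adjusted p = 2.59e-06 and 2.94e-05). Retn (resistin, an adipocyte hormone of rodents, chromosome 8, 3655770 to 3660110) had 151 to 553 normalised reads in CHR, 0 to 5.93 in PAP and 0 to 92.8 in SCC. No papilloma held more than 7 reads of Retn, and the fall was 271-fold in PAP and 26.3-fold in SCC (adjusted p = 6.95e-07 and 1.46e-05).

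The lipid droplet proteins behaved alike in direction. Plin1 (perilipin 1, which guards the droplet from lipases, chromosome 7, 79720218 to 79732903) had 173 to 775 normalised reads in CHR, 0 to 35.6 in PAP and 0 to 122 in SCC. It was at 0 reads in 3 papillomas and in the carcinomas of mice 9 and 10, and fell 218-fold in PAP and 23.6-fold in SCC (adjusted p = 8.36e-07 and 1.93e-05). Cidec, which enlarges droplets by moving lipid between them (chromosome 6, 113424634 to 113435760), had 437 to 2093 normalised reads in CHR, 0 to 35.6 in PAP and 0 to 194 in SCC. The 389-fold fall in PAP and the 32.1-fold fall in SCC both passed the test (adjusted p = 9.71e-07 and 1.98e-05).

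Plin4 (perilipin 4, found on nascent droplets, chromosome 17, 56100591 to 56109803) was the only droplet gene of the members with reads in all 18 libraries. It had 1811 to 3154 normalised reads in CHR, 1.05 to 174 in PAP and 1.79 to 588 in SCC. It fell 107-fold in PAP and 15.0-fold in SCC (adjusted p = 1.3e-06 and 4.28e-05). Its exons share 17 bases with Hdgfl2 on the opposite strand.

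Pparg, the nuclear receptor (chromosome 6, 115360951 to 115490399), had 496.5 to 793 normalised reads in CHR, 12.5 to 75.5 in PAP and 18.8 to 134 in SCC. It was detected in every library, and its highest CHR level and its highest PAP level were both in mouse 10, the mouse with the lowest CHR level of the other 9 members. Pparg fell 24.1-fold in PAP (log2 fold change -4.59, 95% CI -5.55 to -3.63, adjusted p = 1.6e-06) and 10.2-fold in SCC (-3.35, 95% CI -4.17 to -2.54, adjusted p = 2.85e-05). Of the sebaceous markers, 10 of 11 were called lower in both tumours, beside 29.3% (PAP) and 22.7% (SCC) of all genes. Their summed level was 29813 to 112902 in CHR, highest in mouse 10 as for Pparg, and 2203 to 6976 in PAP, where mouse 10 was lowest although its Pparg level was highest. In SCC they summed to 4125 to 10473, highest in mouse 8, while Pparg was highest in mouse 2, and their part in the Pparg result was not tested.

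Lipe (hormone-sensitive lipase, which releases fatty acids from stored fat, chromosome 7, 25379527 to 25398710) was lower in tumours but stayed above 250 normalised reads in all libraries. It had 658 to 1948 normalised reads in CHR, 254 to 658 in PAP and 467 to 647 in SCC. The fall was 2.92-fold in PAP (log2 fold change -1.55, 95% CI -2.16 to -0.94, adjusted p = 0.000551) and 2.39-fold in SCC (-1.26, 95% CI -1.86 to -0.65, adjusted p = 0.00332). It was lower in 5 of 6 papillomas, and in mouse 10 the papilloma and the CHR sample had the same deposited value. Lipe shares 918 exon bases with the antisense transcript 4732471J01Rik and the strandedness of the counting is not given in the sources used here, so its level is uncertain. That transcript had 16.25 ± 6.60 normalised reads in CHR, 33.18 ± 14.5 in PAP and 32.93 ± 10.7 in SCC (SD, n = 6).

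Fabp4 (fatty acid binding protein 4, chromosome 3, 10204088 to 10208576) had no change that passed the test. In CHR it had 5164, 5354, 4296, 4289, 5135 and 2446 normalised reads in mice 2, 3, 7, 8, 9 and 10. The papillomas of the same mice had 4876, 4905, 11022, 1752, 12775 and 1443, and the carcinomas had 10938, 21360, 1180, 6747, 15343 and 3002. Papillomas of mice 7 and 9 were above all CHR samples, those of mice 8 and 10 were below them, and the groups overlapped in every comparison.

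The log2 fold change of Fabp4 was 0.05 in PAP (95% CI -1.14 to 1.25, adjusted p = 0.916 on the deposited values) and 0.57 in SCC (95% CI -0.63 to 1.76, adjusted p = 0.379). A change of up to about these bounds in either direction is not excluded by 6 mice. Fabp4 was higher in SCC than in CHR in 5 of 6 mice, and without mouse 7, whose carcinoma had the lowest level, it was called higher on the deposited scale (log2 fold change 1.11, adjusted p = 0.0202). Endothelial markers, a known site of Fabp4, had a summed level of 6578 to 9494 in CHR, 3872 to 6742 in PAP and 6117 to 9812 in SCC, and macrophage markers 47575 to 76747, 1544 to 10343 and 6250 to 71315. Their part in the Fabp4 level was not tested. Fabp5, the related epidermal fatty acid binding protein, was called higher in both tumours, with 1347 normalised reads in CHR, 3278 in PAP and 2625 in SCC as means.

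**Figure D2:**
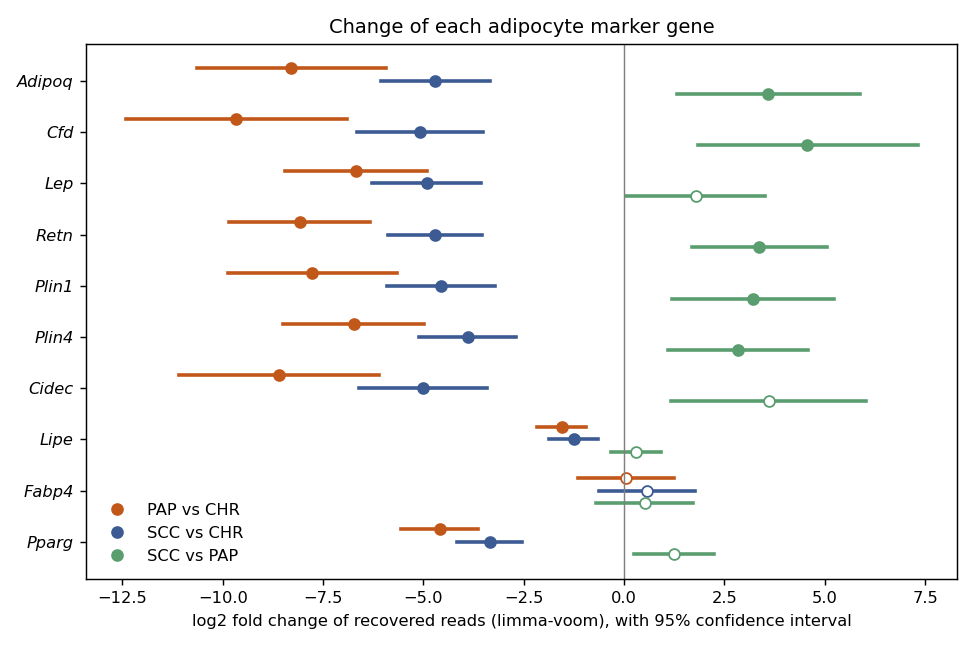
Log2 fold change (limma-voom on recovered reads) of each marker gene in the 3 comparisons, with 95% confidence intervals as bars and filled points for an adjusted p under 0.05 in the same fit. Intervals of Fabp4 cross 0 in all comparisons, whereas those of the other 9 genes lie below 0 in both comparisons with CHR.

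In the sum below the tumours differed more between mice, relative to their level, than CHR did, for papilloma mainly through mouse 2. Lipe went the other way in SCC, where its SD was 11.8% of the mean against 32.0% in CHR. Summed over the 8 members without Lipe and Fabp4, CHR held 5893 to 15520 normalised reads. These 8 were grouped after their values had been seen. Papillomas held 30.0 to 82.9, except that of mouse 2 with 480.7, in which 7 of the 10 members had their highest papilloma level. Carcinomas held 1400, 994.1, 228.1, 2264, 70.5 and 21.5 in mice 2, 3, 7, 8, 9 and 10.

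The comparison of carcinoma with papilloma gave 0 of 10 members called with limma on the deposited values, where 9.85% of all genes were called, 8.75% higher and 1.1% lower in SCC. At an unadjusted p under 0.05 there were 7, where 3570 of all 14521 genes passed, and the lowest adjusted p of the members were those of Cfd (0.0546) and Plin4 (0.0559). With limma-voom on the recovered reads, 5 members were called higher in SCC, namely Adipoq, Cfd, Retn, Plin1 and Plin4, where 10.6% of all genes were called higher and 12.0% in either direction. Their log2 fold changes were 2.84 to 4.57, with adjusted p of 0.0161 to 0.0437 in that fit. The groups overlapped for all 10 members, and non-overlap was rare among all genes too (0.255% higher). The test on deposited values called 2 members without mouse 9 and 5 without mouse 10, the mice whose carcinomas were closest to 0.

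By mouse, Adipoq had 117, 104, 16.4 and 209 normalised reads in the carcinomas of mice 2, 3, 7 and 8, and 0 and 0.895 in those of mice 9 and 10. The matching papillomas had 64.4, 0, 1.04 and 0.862 in mice 2, 3, 7 and 8, and 0 and 1.05 in mice 9 and 10. Adipoq was thus higher in carcinoma in 4 of 6 mice. In mice 9 and 10 both tumours had the same number of reads (0 in mouse 9 and 1 in mouse 10). Plin4 was higher in carcinoma in 6 of 6 mice, with a median of 178.8 normalised reads in carcinoma against 15.9 in papilloma. The ranges nevertheless overlapped, since the carcinoma of mouse 10 had only 1.79.

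Markers of skeletal muscle moved with these members. In CHR the 15 muscle genes summed to 409340 to 614304 normalised reads. In papilloma they summed to 30849 in mouse 2 and 358 to 1444 in the other mice, and in carcinoma to 77325 to 204800 in 5 mice and 543 in mouse 10. The papilloma of mouse 2 held the most reads of both kinds, and the carcinoma of mouse 10 the fewest. The other mice did not follow the same order. In the sum of 8 fat cell genes, the papilloma of mouse 9 was lowest, but it had the second most muscle reads. The papilloma of mouse 10 was second highest in that sum but had the fewest muscle reads. Most of its sum was Pparg (75.5 of 82.9 normalised reads), and each other gene had at most 4.2. The places of mice 9 and 10 in the fat order thus depend on Pparg. The highest carcinoma was that of mouse 8 for fat and of mouse 2 for muscle. The carcinoma of mouse 10 was also lowest for macrophage (6250) and dermal fibroblast markers (18815). Muscle genes were called lower for 15 of 15 in both comparisons with CHR, where 29.3% (PAP) and 22.7% (SCC) of all genes were lower. They were called higher for 14 of 15 in SCC vs PAP, where 8.75% of all genes were higher. In that comparison 0 of all genes were called without mouse 7 or mouse 8. None was at 0 in all libraries of a group, and the most abundant, Ttn (titin), had 329300 ± 49600 normalised reads in CHR, 3792 ± 8360 in PAP and 80960 ± 53000 in SCC (SD, n = 6).

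Dermal fibroblast markers were called lower for 8 of 10 in PAP and 2 of 10 in SCC, and macrophage markers for 10 of 10 and 9 of 10, beside 29.3% and 22.7% of all genes, so that the fibroblast count in SCC was near the share of all genes. More keratinocyte markers were higher than lower, with 6 of 10 higher and 1 lower in PAP, and 4 higher and 2 lower in SCC. Over all genes 23.3% (PAP) and 15.8% (SCC) were higher, and 29.3% and 22.7% lower. Their summed level had a median of 536620 in CHR, 859237 in PAP and 561822 in SCC. The list did not move together, since mean Krt14 was 96550, 327500 and 178400 and mean Krt1 was 146700, 66720 and 34890. The part of these other tissues in the results on the fat cell genes was not tested.

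**Figure D3:**
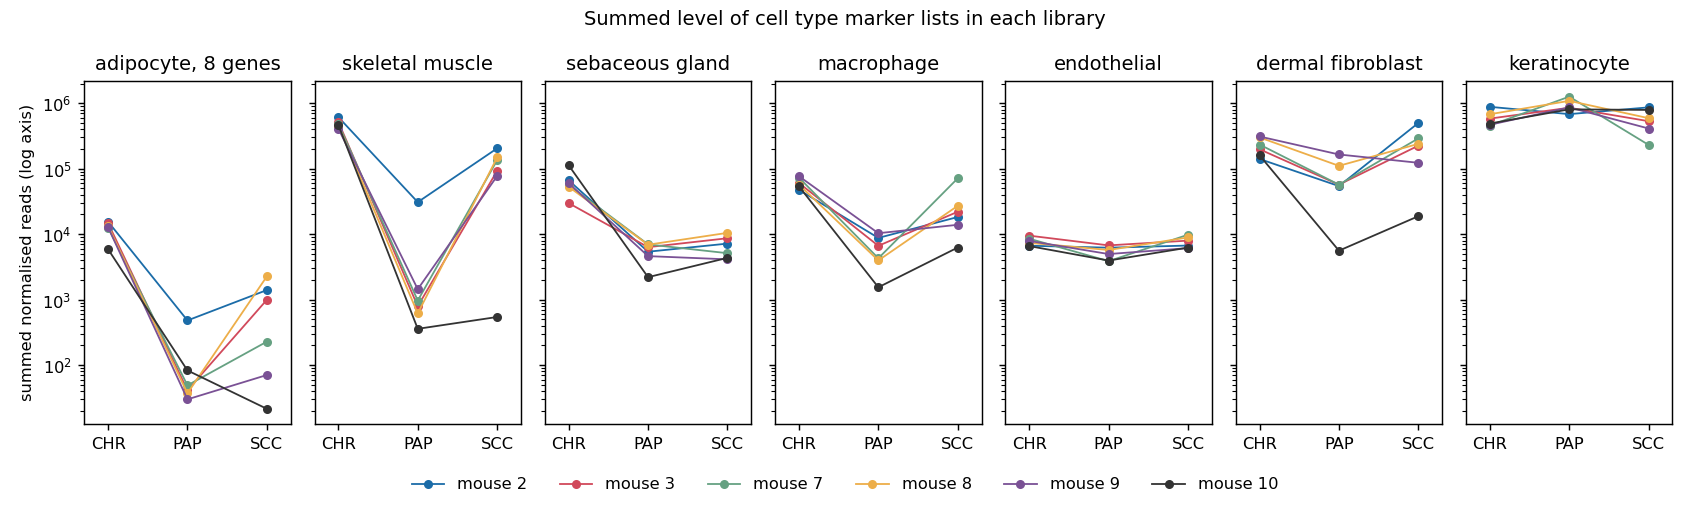
Summed normalised reads (log axis) of 8 fat cell genes (without Lipe and Fabp4) and of 6 lists of markers of other cell types in each library, with a line per mouse. Mouse 2 has the highest papilloma in the adipocyte and skeletal muscle panels, and mouse 10 the lowest carcinoma in these and in the macrophage and dermal fibroblast panels.

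The members were set against Adipoq in the same library to ask whether each fell by a like amount. The log2 change minus that of Adipoq was 9.26 in PAP and 6.67 in SCC for Fabp4, 7.67 and 4.79 for Lipe, and 4.58 and 2.65 for Pparg, above 0 in 6 of 6 mice each. A gene that does not change would also pass this test, and 99.2% (PAP) and 98.0% (SCC) of all genes did, so these 3 calls say only that Lipe and Pparg fell less than Adipoq and that Fabp4, which had no called change, did not share its fall. Fabp4, Lipe and Pparg passed with limma, Pparg in SCC with an adjusted p of 0.0494 that was lost without the block (0.0859) and without mouse 2, 7, 9 or 10 (0.0503 to 0.172). They also had the smallest p that an exact two-sided permutation test within 6 mice can give (0.0312, adjusted p 0.0318 in PAP and 0.0321 in SCC, where 98.2% and 97.3% of all genes were called). The other 6 members were not called with limma in either tumour. Their differences were -1.38 to 2.14 in PAP and -0.77 to 1.08 in SCC. The standard error was 1.34 for every member, since this fit takes Adipoq from all genes and pools their spread. It therefore carries the spread of Adipoq and does not measure that of a single member, nor do the limma p of this test. With limma, moderate differences could not have been detected. Lep, with a difference of 2.14 in PAP that was above 0 in 6 of 6 mice, passed the exact permutation test only (adjusted p = 0.0318). Lep had 120 to 462 reads in CHR and Adipoq 537 to 1721, so Lep had less room to fall before reaching 0 reads. In mice 3 and 9 both genes had 0 papilloma reads, and there the sign was set by the CHR levels alone. This call therefore does not show that Lep fell less than Adipoq. In SCC vs PAP, Lipe alone was called with limma (-2.88, adjusted p = 0.0443, where 74.8% of all genes were called), a call lost without the block (0.0839) and without mouse 3, 7 or 8 (0.124 to 0.222), and the exact permutation test called 0 of the 9 members and 0 of all genes (0 members and 544 genes at an unadjusted p under 0.05).

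As a share of the CHR level of the same mouse, Fabp4 had a median of 93.0% in PAP and 184% in SCC. Lipe had 36.8% and 37.1%, and Pparg 3.88% and 13.2%. The other 7 members had medians of at most 0.569% in PAP and of 2.68% to 6.12% in SCC.

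Ordered by level per kilobase of exon, CHR was led by Cfd (5840 ± 1970 normalised reads per kb, SD, n = 6), followed by Fabp4 (991 ± 241), Adipoq (880 ± 288), Cidec (728 ± 286), Plin4 (458 ± 82.1), Retn, Lipe, Pparg (214 ± 41.0), Plin1 (130 ± 48.6) and Lep (71.8 ± 31.9). Neighbours in this order overlapped in range except Cfd and Fabp4, and Pparg and Plin1. Fabp4 led in PAP (1370 ± 1060) and in SCC (2170 ± 1710). Its exons merge into 1 block of 4489 bases in the annotation, the full length of the gene, and this length lowers its level per kilobase. Lipe was second in PAP (81.1 ± 29.2) and Cfd in SCC (323 ± 396).

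Over the 18 libraries, the correlation of each member with the mean of the others was 0.91 to 0.99 for 8 members, 0.82 for Lipe and -0.01 for Fabp4. The libraries share 6 mice and 3 tissues, so these coefficients are descriptions. The 6 other genes with the most similar profile to the mean of the members were B3galt2 (r = 0.987), Pck1 (0.984), Tshr (0.981), A530016L24Rik (0.979), Gpd1 (0.977) and Coch (0.977). Pck1 had 178 to 1859 normalised reads in CHR, 0 to 28.0 in PAP and 0 to 140.1 in SCC.

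Of 86 further genes of fat storage and fat tissue, 79 were in the table. In PAP vs CHR 51 were called lower and 4 higher, in SCC vs CHR 53 lower and 4 higher, and in SCC vs PAP 1 lower and 19 higher. Over all genes, 29.3% were lower in PAP vs CHR, 22.7% were lower in SCC vs CHR and 8.75% were higher in SCC vs PAP. The calls in SCC vs PAP depend on which mice are included. With limma 0 of all genes were called without mouse 7 or mouse 8 (2450 and 2594 at an unadjusted p under 0.05), and 471 without mouse 3. Without mouse 2, 9 or 10 there were 1244, 1608 and 1995, against 1430 with all mice. Many of the 79 genes are also expressed in sebaceous glands, muscle or epidermis. The values below are log2 fold changes on the log2(value + 1) scale, in which the medians of all genes were 0.00, -0.02 and -0.02.

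Genes of fatty acid uptake and triglyceride synthesis were called lower for 11 of 15 in both tumours. Cd36, a fatty acid transporter, fell by 6.38 ± 0.62 (SE) in PAP and 3.83 ± 0.62 in SCC (adjusted p = 4.01e-06 and 0.00051), and Lpl, the lipase that frees fatty acids from lipoproteins, fell by 5.47 ± 0.60 and 3.50 ± 0.60. Pck1 and Gpd1, which supply glycerol 3-phosphate, fell by 4.17 and 3.68 in PAP and by 3.25 and 2.79 in SCC. Cd36, Gpd1 and Gpihbp1, which anchors Lpl to capillaries, were higher in SCC than in PAP (2.55, 0.89 and 1.11).

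Of the lipid droplet and lipolysis genes, 8 of 16 were lower and 1 higher in PAP, and 10 of 16 lower in SCC. Mgll, which encodes monoacylglycerol lipase, fell by 3.79 in PAP and 3.44 in SCC, and Pnpla2, the lipase for the first step of triglyceride breakdown, fell by 2.16 and 1.73. De novo lipogenesis genes were lower for 6 of 10 in PAP and 7 of 10 in SCC, with 0 called in SCC vs PAP. The desaturase Scd1 had 45540, 1879 and 4014 normalised reads as means in CHR, PAP and SCC, and Thrsp had 299.9, 0.747 and 7.99.

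Adipogenic transcription factors and cofactors were lower for 9 of 14 in PAP and 11 of 14 in SCC, with 1 higher in each. Ebf1 fell by 2.40 and Nr1h3, the oxysterol receptor LXR alpha, by 2.07 in PAP, and both were higher in SCC than in PAP (1.50 and 0.85, in 6 of 6 mice). Among other secreted factors and receptors, 10 of 14 were lower in each tumour. In SCC vs CHR, 11 genes of this list were called in either direction on the deposited values and 8 with limma-voom. Rarres2 (chemerin) fell by 4.53 in PAP, and by 1.81 in SCC (adjusted p = 0.0363), where it was lower in 5 of 6 mice and not called with limma-voom (adjusted p = 0.057). Apln (apelin, also made by endothelial cells) was higher in both, by 2.23 and 2.01, in 6 of 6 mice.

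Of 7 brown and beige fat genes listed, 4 were measured, and Ucp1, Prdm16 and Otop1 were not. Of the 4, 3 were lower in each tumour, with Cox8b at 195.1, 2.40 and 26.6 normalised reads as means in CHR, PAP and SCC. Cox8b and Cox7a1 were higher in SCC than in PAP, as were 14 of 15 muscle genes, while Dio2 and Cidea were not called. The part of muscle in these values was not tested. Adipose progenitor genes were lower for 4 of 6 in PAP and for 1 of 6 in SCC, the latter near the 22.7% of all genes. Pi16, a marker of fibroblast-like progenitors, had 2439, 54.6 and 740.7 normalised reads, and Pdgfra, which dermal fibroblasts share, had 5515, 658.5 and 4011. Pdgfra, Pi16 and Pdgfrb were higher in SCC than in PAP in 6 of 6 mice, by 2.52 ± 0.51, 2.47 ± 0.55 and 1.77 ± 0.45 (SE, adjusted p = 0.0137, 0.0178 and 0.027).

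**Figure D4:**
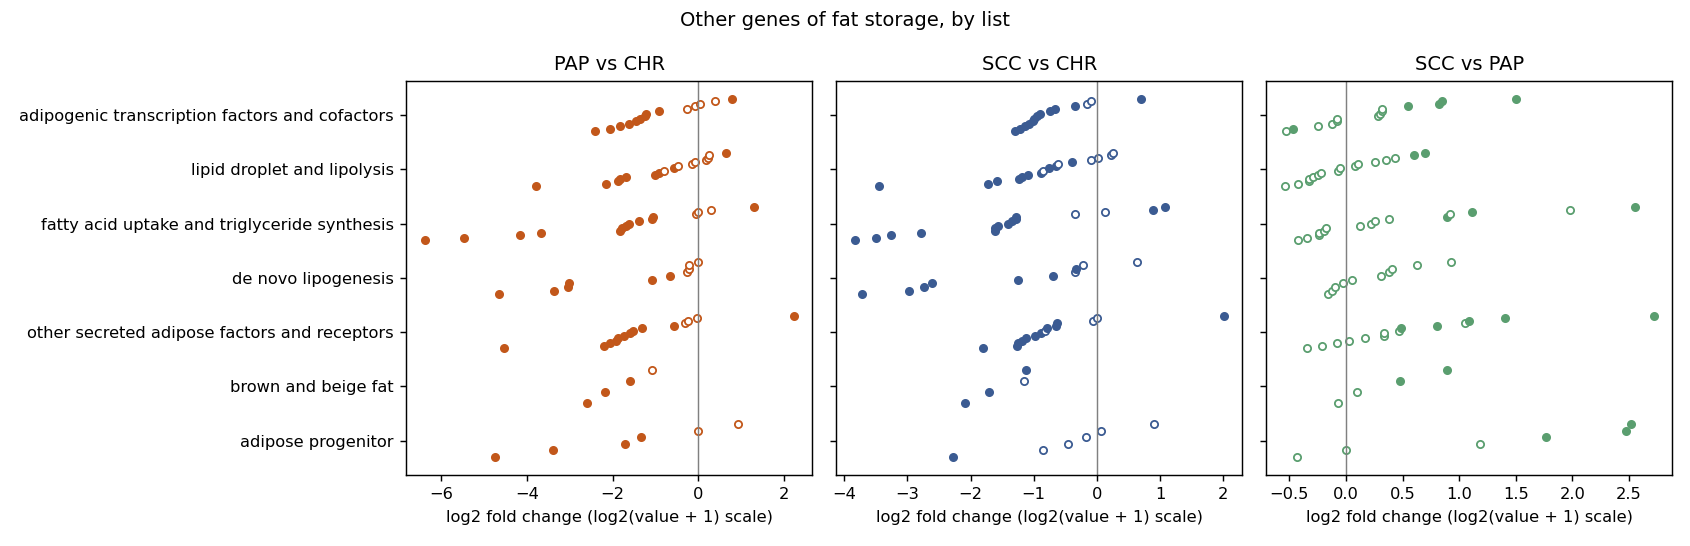
Log2 fold change on the log2(value + 1) scale of the other genes of fat storage and fat tissue, by list, in the 3 comparisons, with filled points for an adjusted p under 0.05 and open points otherwise. Most filled points lie below 0 in the comparisons with CHR (51 of 55 in PAP), and 19 of 20 lie above 0 in SCC vs PAP.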

How the data were processed

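Skin of 6 mice was profiled by mRNA sequencing in 18 libraries, grouped by sample title. The authors aligned reads to mm10, with an aligner not given for the mouse reads in the sources used here, counted them per gene with HTSeq, scaled the counts and applied a variance-stabilizing transformation. What they deposited is this transformed value put back on a linear scale and rounded, a score in which 0 reads appear as 39. The authors also state a batch correction, of which the read steps show no trace. The score was inverted to reads (for 99.2% of values a whole number of reads gave back the deposited rounded value exactly, a strict check only at low values, where reads lie further apart than the rounding), with size factors of 0.834 to 1.18. Of 14542 entries, 21 with a number for a symbol were left out (at most 0.236% of a library). Coordinates and exon lengths are from GENCODE M21 (GRCm38).

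limma 3.58.1 (R 4.3.3) was fitted on log2(value + 1) with group and mouse as terms. Same-numbered samples came from the same mouse, and the correlations of their deviations from the group means were -0.24 to 0.51. The 9 differences from Adipoq used log2(normalised reads + 0.5) in each comparison. On simulated data for PAP vs CHR with 14521 genes, 99.5% of 200 genes changed 4-fold were recovered with 2.93% false calls. The 200 were drawn from genes well above 0 reads, with the same dispersion for every gene, no mouse effect and all other genes unchanged. In the data 52.6% of genes were called and many members were near 0 reads in papilloma, so these rates need not hold for them. Members and gene lists were chosen with earlier results of these data known. From each list up to 4 called genes with the largest change in a comparison were eligible to be named, along with the 6 genes most like the members. The exact permutation test was added after seeing the data. Alternatives were other scalings, filters and blocks, and leaving out each mouse.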

Additional observations from a re-analysis of the deposited data

Results flagged for a closer look

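In 10 of 30 sets of 6 samples, 1 for each member in each tissue, the highest or lowest sample stood apart by Dixon's criterion. It was applied to log2(value + 1) of the deposited values, and chance would meet it in about 1 in 20. The levels quoted here are normalised reads, a scale on which the flagged sets would not be the same. In CHR the lowest sample was mouse 10 for Adipoq (516 normalised reads), Cfd (1898), Retn (151), Plin1 (173), Cidec (437) and Fabp4 (2446). In PAP the highest sample was mouse 2 for Adipoq (64.4), Cfd (120), Plin1 (35.6) and Cidec (35.6). No member stood apart in SCC. The members share these libraries, so the 10 are not independent of each other.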

How the results depend on the processing

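In PAP vs CHR and SCC vs CHR, 9 or 10 members were called under each alternative. In SCC vs PAP, 1430 genes were called, against 810 without the mouse block and 0 in a fit of only these groups (2830 at an unadjusted p under 0.05, lowest adjusted p 0.0512), and 0 to 1995 with a mouse left out (471 without mouse 3, 0 without mouse 7 or 8). Members called there were 0, against 5 and 6 with limma-voom on size factors and on total reads, and 0 to 5 with a mouse left out. In the difference from Adipoq, SCC vs PAP gave 1 member, 0 without the block and by the exact permutation test, and 0 to 2 with a mouse left out. The cause of these changes was not tested. Quantile normalization raised the share of higher calls from 44.4% to 62.4% in PAP vs CHR and from 41.0% to 57.8% in SCC vs CHR, lowered it from 88.8% to 68.5% in SCC vs PAP, and moved the median of all genes by up to 0.16. Fabp4 in PAP vs CHR, 0.08 on the deposited scale, was -0.02 with quantile normalization and -0.18 to 0.34 with a mouse left out. Uncalled differences from Adipoq that changed sign with a mouse left out were Cidec in PAP vs CHR (-0.60 to 0.21), Lep in SCC vs CHR (-0.04 to 1.07), and in SCC vs PAP Retn (-0.89 to 0.06), Plin1 (-0.75 to 0.05) and Plin4 (-1.46 to 0.28). Without the replicate block, no member call changed in the comparisons with CHR, where 9 were called in each. Most members had at most 3 reads in most papillomas, so differences among papillomas are at the limit of depth.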
